A study of Rattus norvegicus with 6 samples.

Results

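The miR-15/16 seed family, which includes miR-195 and miR-322, was examined in rat plasma through 6 mature microRNAs, rno-miR-15b-5p, rno-miR-16-5p, rno-miR-195-5p, rno-miR-497-5p, rno-miR-322-5p and rno-miR-503-5p. They were taken by name from the 758 microRNAs of an Agilent rat microRNA array, and all 6 were present on it. Plasma was obtained from the abdominal aorta (arterial plasma) and from the postcava (venous plasma) of 3 untreated male Sprague-Dawley rats aged 10 weeks, so that each rat gave 1 sample of each type and 6 arrays were hybridized. Blood was taken into EDTA, and the plasma was centrifuged again and filtered before RNA extraction, so that the values describe cell-depleted plasma of healthy animals. The comparison asks whether the 2 kinds of plasma of the same animal carry the same microRNAs.

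A microRNA pairs with messenger RNAs mainly through its seed, the bases near its 5′ end, and lowers the translation and stability of these messages. Members of the miR-15/16 family are known for targeting cyclins, other cell cycle regulators and the survival factor Bcl2, and for restraining proliferation. In blood, miR-16 and miR-15b are known to be abundant in red cells and platelets, whereas miR-195 and miR-497 come from a shared transcript and miR-322 and miR-503 from an X-linked transcript known from developing muscle.

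The mature sequences show why these microRNAs form a family. They come from RefSeq (GRCr8), are written 5′ to 3′, and have the seed, bases 2 to 8, in capitals.
rno-miR-15b-5p: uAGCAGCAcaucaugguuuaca
rno-miR-16-5p: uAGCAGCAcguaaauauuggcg
rno-miR-195-5p: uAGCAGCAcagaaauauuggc
rno-miR-497-5p: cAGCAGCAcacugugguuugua
rno-miR-322-5p: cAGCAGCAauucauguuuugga
rno-miR-503-5p: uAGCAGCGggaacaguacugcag

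The seed AGCAGCA is carried by 5 members and by no other of the 685 array microRNAs that have a sequence in this table. rno-miR-15a-5p is not among the 685, so that its seed was not compared. rno-miR-503-5p carries AGCAGCG, which differs from the seed of the others at the last base (A8G, counted from 1 at the 5′ end) and is found in no other of the 685. After the seed the members differ widely. rno-miR-16-5p and rno-miR-195-5p are the closest pair, identical at 19 of 21 positions (90.5%) and different at G10A and U11G. rno-miR-15b-5p is identical at 16 of 22 positions (72.7%) to rno-miR-497-5p and to rno-miR-322-5p. Whether the probes of rno-miR-16-5p and rno-miR-195-5p also bind the other microRNA was not tested.

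The members lie in 3 pairs in the GRCr8 assembly, each pair on 1 strand. rno-miR-15b-5p (chr2:155555197-155555218) and rno-miR-16-5p (chr2:155555343-155555364) lie on the plus strand within Smc4, a condensin subunit gene, with 124 bases between the mature sequences. rno-miR-497-5p (chr10:55450172-55450193) and rno-miR-195-5p (chr10:55450509-55450529) lie on the plus strand with 315 bases between them, and no other annotated gene overlaps them. rno-miR-503-5p (chrX:137725899-137725921) and rno-miR-322-5p (chrX:137726198-137726219) lie on the minus strand within LOC102550366, with 276 bases between them.

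On each array between 137 and 175 microRNAs were called detected by the scanner software, with 126 detected on all arrays and 557 on none. The median background-subtracted intensity of those 126 ranged from 17.2 to 52.9, with the venous array of rat 2 brightest and the venous array of rat 3 dimmest. The 4 arrays of rats 1 and 2 shared 1 slide, and those of rat 3 were on a second slide, each slide scanned once. Slide therefore does not separate arterial from venous plasma, but rat 3 and the slide cannot be told apart. Precision is limited by the number of arrays, and p-values rest on these 3 rats only. In the main tests, between plasma types and between rats, the error is the spread of the arterial minus venous differences over rats.

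The pair on chromosome 2 was detected throughout, the pair on chromosome 10 in part and the pair on chromosome X not at all. rno-miR-15b-5p and rno-miR-16-5p were called detected on all 6 arrays, with 83 of 85 and 82 of 82 of the spots used well above background. rno-miR-497-5p was called detected on 5 arrays, all but the venous array of rat 3, with 33 of 89 spots well above background. rno-miR-195-5p was called detected on 4 arrays, in the arterial plasma of all 3 rats and in the venous plasma of rat 2, with 31 of 88 spots well above background. rno-miR-322-5p and rno-miR-503-5p were detected on no array, and 0 of 84 and 0 of 94 spots were well above background. Intensities of different microRNAs come from different probes, so that the members were compared between samples and not with each other.

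rno-miR-15b-5p and rno-miR-16-5p, the pair best measured here, did not differ between arterial and venous plasma beyond the spread between rats. The background-subtracted intensity of rno-miR-15b-5p, given here and below for rats 1, 2 and 3 in order, was 29.8, 35.7 and 41.4 for arterial plasma and 22.3, 54.3 and 17.1 for venous plasma. After quantile normalization, which gives every array the same distribution of values, its log2 intensity was 4.77, 4.80 and 5.57 in arterial and 5.04, 5.08 and 5.04 in venous plasma. The venous values of the 3 rats lay within the range of the arterial ones, of which rat 3 was the highest. The arterial mean was 5.05 ± 0.45 (SD, n = 3) and the venous mean 5.05 ± 0.03 (SD, n = 3).

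rno-miR-16-5p, one of the microRNAs most often measured in blood, had arterial intensities of 367, 456 and 380 and venous intensities of 269, 694 and 168. Its normalized log2 intensity was 8.23, 8.61 and 8.84 in arterial plasma and 8.47, 9.05 and 8.61 in venous plasma. The groups overlapped, with the highest value in the venous plasma of rat 2 and the lowest in the arterial plasma of rat 1. The group means were 8.56 ± 0.31 (SD, n = 3) and 8.71 ± 0.30 (SD, n = 3).

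rno-miR-195-5p, known for its rise in the failing and postnatal heart, had arterial intensities of 7.36, 31.6 and 6.18 and venous intensities of 4.09, 24.0 and 1.94. Its normalized log2 intensity was 2.57, 4.59 and 2.80 in arterial plasma and 2.54, 4.17 and 1.55 in venous plasma. Both samples of rat 2 stood above all others, and within each rat the arterial value was the higher. The group means were 3.32 ± 1.11 (SD, n = 3) and 2.75 ± 1.32 (SD, n = 3), and the groups overlapped.

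rno-miR-497-5p, the genomic partner of rno-miR-195-5p, had arterial intensities of 10.3, 26.1 and 6.20 and venous intensities of 6.42, 22.1 and 3.60. Its normalized log2 intensity was 3.06, 4.41 and 2.83 in arterial plasma and 2.96, 4.08 and 2.54 in venous plasma. Again both samples of rat 2 were the highest and each rat's arterial value was above its venous value. The group means were 3.43 ± 0.85 (SD, n = 3) and 3.19 ± 0.79 (SD, n = 3), and the groups overlapped.

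**Figure D1:**
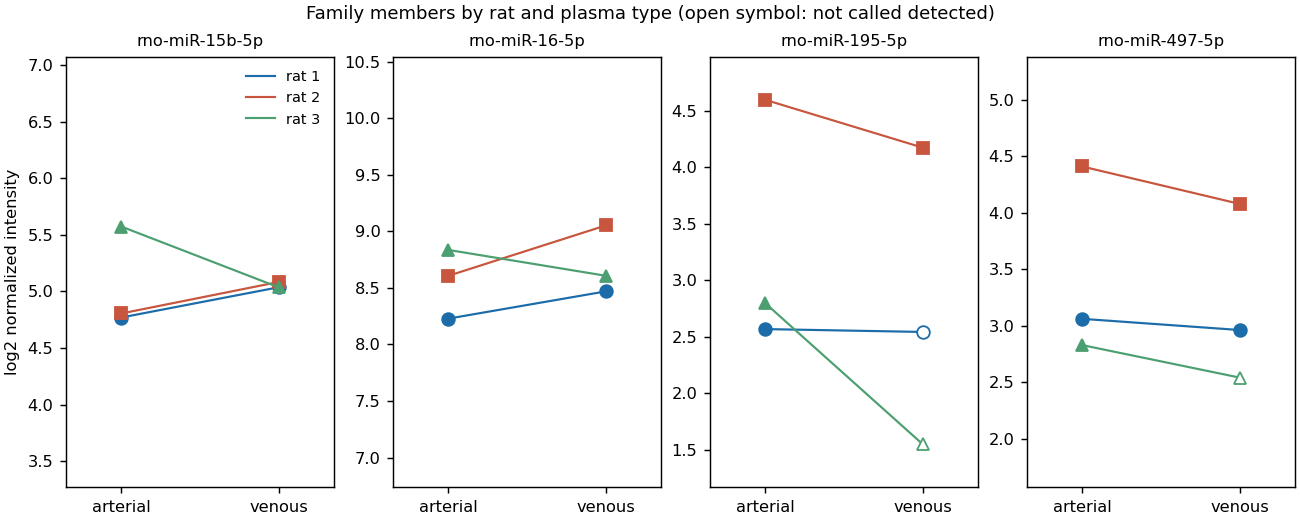
Normalized log2 intensity (vertical axis) of the 4 detected members in arterial and venous plasma (horizontal axis), with a line joining both samples of each rat and open symbols for samples not called detected. Each panel spans the same number of log2 units. The lines of rno-miR-15b-5p and rno-miR-16-5p cross, whereas rat 2 lies above the other rats for rno-miR-195-5p and rno-miR-497-5p.

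Differences are given as arterial minus venous on the log2 scale and were tested with limma over all 758 microRNAs with the rat as a block. For rno-miR-15b-5p the differences were -0.27, -0.28 and 0.54 in rats 1, 2 and 3, and the mean was below 0.01 in size with a 95% interval from -1.02 to 1.02 (adjusted p = 1). For rno-miR-16-5p they were -0.24, -0.45 and 0.23, with a mean of -0.15 (standard error 0.190, interval -0.90 to 0.60, adjusted p = 1). Both members were thus below their venous level in arterial plasma from rats 1 and 2 and above it in rat 3. The mean over rats 1 and 2, which share a slide, was -0.27 for rno-miR-15b-5p and -0.34 for rno-miR-16-5p.

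For rno-miR-195-5p the differences were 0.03, 0.42 and 1.25, with a mean of 0.56 (standard error 0.343, interval -0.79 to 1.92, adjusted p = 1). The difference of 1.25 in rat 3 rests on a venous array on which this microRNA was not called detected. In rat 2, where rno-miR-195-5p was detected in both samples, the difference was 0.42. The deposited table of normalized probe intensities, which keeps the background, gave a mean of -0.12 for it. For rno-miR-497-5p the differences were 0.10, 0.33 and 0.29, with a mean of 0.24 (standard error 0.0678, interval -0.03 to 0.51, adjusted p = 1). Scaling each array by its 75th percentile in place of quantile normalization gave -0.16, 0.68 and -0.09 for rno-miR-497-5p, so that its common direction in the 3 rats depended on the scaling.

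None of the 6 members passed the cutoff of 0.025 for the unadjusted p, the threshold of the study's methods, where 6 of 758 microRNAs (0.792%) did. These comprised 4 microRNAs higher in arterial plasma (0.528%) and 2 lower (0.264%). At an adjusted p of 0.05 limma called 0 of 758, while 12 (1.58%) had an unadjusted p under 0.05, none of them a member, and the methods' t-test on these log2 values also called 0 members at the cutoff. With only 2 rats in the limma fit, rno-miR-15b-5p passed the cutoff at -0.27 without rat 3 (adjusted p = 0.642) and rno-miR-497-5p at 0.31 without rat 1 (adjusted p = 0.404). Calls rose over the whole array in these fits, to 17 of 758 without rat 3 and 33 of 758 without rat 1. Among microRNAs detected on at least 1 array, 22 of 201 (10.9%) had an arterial value above the venous one in each of the 3 rats, and rno-miR-195-5p and rno-miR-497-5p were 2 of these. The intervals depended on the fit. In a limma fit of the 201 microRNAs alone, they ran from -0.67 to 0.66 for rno-miR-15b-5p and from -0.19 to 1.31 for rno-miR-195-5p.

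**Figure D2:**
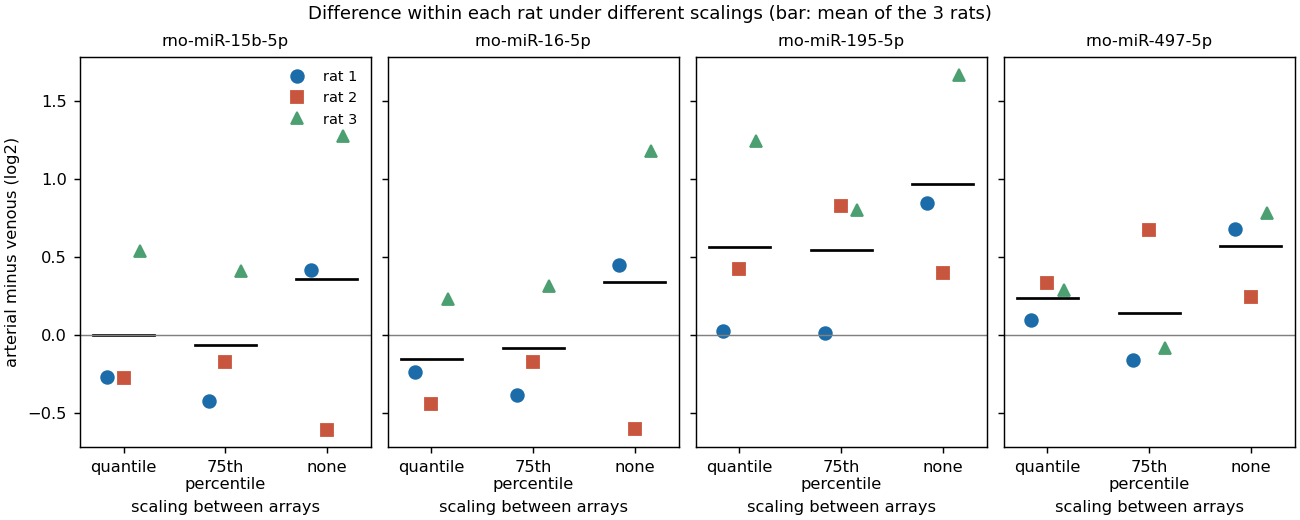
Arterial minus venous difference on the log2 scale (vertical axis) of the 4 detected members in each rat under 3 ways of scaling the arrays (horizontal axis), with a bar at the mean of the 3 rats. Without scaling, the values of rno-miR-15b-5p and rno-miR-16-5p move together with the brightness of the arrays, and rat 2 lies below 0 while rats 1 and 3 lie above it.

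Before normalization the differences of rno-miR-15b-5p were 0.42, -0.61 and 1.28 in rats 1, 2 and 3, and those of rno-miR-16-5p were 0.45, -0.61 and 1.18. The median over the 126 microRNAs detected on all arrays moved in the same directions, by 0.63, -0.29 and 0.84. Fewer copies of 1 microRNA and less RNA in a plasma sample cannot be told apart from these arrays. The mean difference over the rats was 0.36 for rno-miR-15b-5p and 0.34 for rno-miR-16-5p, and the median of the mean differences of the 126 was 0.40.

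How erythrocyte markers moved beside this pair differed among them and depended on the scaling. Of 4 erythrocyte markers 3 were detected on all arrays, and rno-miR-144-5p on none. Their summed intensity ranged from 1765 to 2110 in arterial and from 598 to 2911 in venous plasma, with the venous samples of rat 2 highest and of rat 3 lowest. After normalization rno-miR-144-3p differed by -0.26, -0.63 and 1.10 in rats 1, 2 and 3, with the signs of rno-miR-15b-5p and rno-miR-16-5p. rno-miR-486 differed by -0.23, -1.02 and -0.47, opposite to the pair in rat 3, and rno-miR-451-5p by 0.00, 0.00 and 0.79. In rats 1 and 2 both samples of rno-miR-451-5p had the same top value of 10.49, so that 0.00 shows no lack of movement. Scaled by the 75th percentile, rno-miR-451-5p differed by -0.37, -0.03 and 0.98, with the pair's signs, while rno-miR-486 stayed opposite in rat 3 (-0.23). Before normalization rno-miR-486 differed by 0.70, -1.24 and 0.64, also with the pair's signs. In the quantile-normalized values the median of the pair differed by -0.25, -0.36 and 0.38, against -0.13, 0.00 and 0.02 for all 126 microRNAs. Platelet and leukocyte markers, 5 of 6 detected on all arrays, summed to between 717 and 830 in arterial and between 451 and 1038 in venous plasma. The part of blood cell RNA in these differences was not tested.

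Ratios within an array do not move when it is scaled by a constant factor, though quantile normalization can change them. In the values before normalization, the ratio of rno-miR-16-5p to rno-miR-15b-5p was nearly the same in both plasma types of a rat. Before normalization the log2 ratio was 3.63, 3.68 and 3.20 in arterial and 3.59, 3.67 and 3.30 in venous plasma of rats 1, 2 and 3. Its level depends on the probes and is not read here. Its differences were 0.03, 0.00 and -0.10, with a mean of -0.02 ± 0.07 (SD, n = 3; exact two-sided permutation of signs within rats, p = 1). With single probes in place of their mean, the 4 pairs of probes gave -0.01 to 0.05 in rat 1, -0.10 to 0.11 in rat 2 and -0.22 to -0.03 in rat 3. Both samples of rat 3 had a lower ratio than the other 4 samples. In the normalized values the differences were 0.03, -0.17 and -0.31, with a mean of -0.15 ± 0.17 (SD, n = 3; exact permutation p = 0.5).

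Against rno-miR-451-5p, the red cell microRNA that is processed by Ago2, rno-miR-16-5p was lower in each rat's arterial sample before normalization. The log2 ratio before normalization differed by -0.02, -0.14 and -0.67, with a mean of -0.27 ± 0.35 (SD, n = 3; exact permutation p = 0.25, the smallest that 3 pairs allow). Most of this mean came from rat 3. In the normalized values the differences were -0.24, -0.45 and -0.56 (mean -0.41 ± 0.16, SD, n = 3; exact permutation p = 0.25), where rno-miR-451-5p had the same value of 10.49 on 5 arrays because it ranked first on them. Outside rat 3 both samples of a rat shared this value, so that the normalized differences there were those of rno-miR-16-5p alone. They do not tell how rno-miR-16-5p moved against rno-miR-451-5p. With 3 pairs neither ratio could reach a p of 0.05. The ratios of rno-miR-195-5p to rno-miR-497-5p and of rno-miR-322-5p to rno-miR-503-5p were not tested, since these members were not detected on all arrays.

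**Figure D3:**
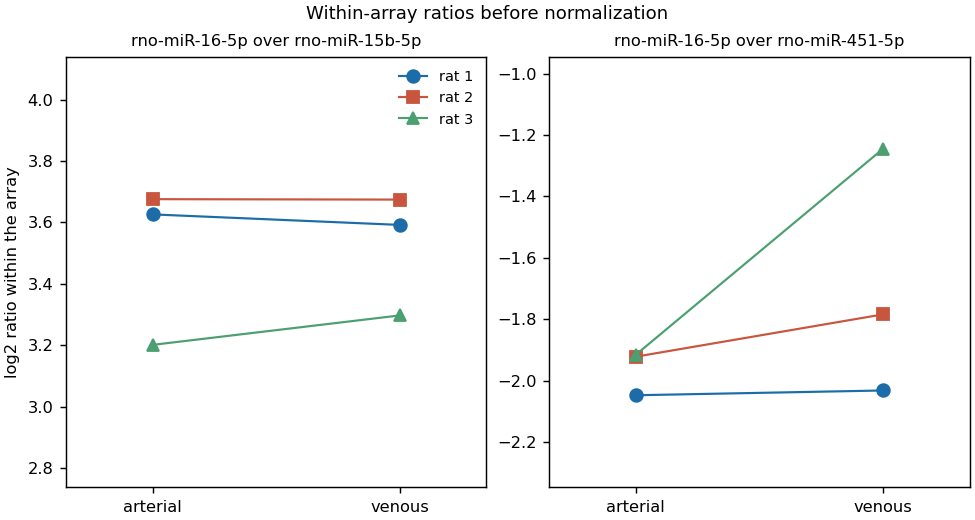
Log2 ratio within each array before normalization (vertical axis) in arterial and venous plasma (horizontal axis), with a line for each rat. The ratio of rno-miR-16-5p to rno-miR-15b-5p differs by no more than 0.10 between the samples of a rat, and the ratio to rno-miR-451-5p is higher in the venous sample of each rat, by 0.67 in rat 3.

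For the pair on chromosome 10, 1 rat stood apart in both plasma types. The mean normalized log2 intensity of rno-miR-195-5p was 2.56, 4.38 and 2.17 in rats 1, 2 and 3, so that rat 2 exceeded the mean of the others by 2.02. That of rno-miR-497-5p was 3.01, 4.24 and 2.69, with an excess of 1.39 in rat 2. Rat 1, whose arrays were on the same slide as those of rat 2, was lower by 1.83 and 1.23. For the pair on chromosome 2 the excess of rat 2 was -0.16 for rno-miR-15b-5p, with rat means of 4.90, 4.94 and 5.30, and 0.29 for rno-miR-16-5p, with rat means of 8.35, 8.83 and 8.72.

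In the limma F test between rats, 1 of 6 members passed the cutoff of 0.025, beside 26 of 758 microRNAs (3.43%). This was rno-miR-497-5p (adjusted p = 0.302), while rno-miR-195-5p had an adjusted p of 0.635. Without rat 2, 0 members passed, and without rat 3, 2 did. The count over all microRNAs is not given for these fits, so the member counts are not read further. No microRNA of the 758 passed an adjusted p of 0.05 in this limma fit, and 58 (7.65%) had an unadjusted p under 0.05. When the fit was limited to the 201 microRNAs detected on at least 1 array, rno-miR-195-5p (adjusted p = 0.0358) and rno-miR-497-5p (adjusted p = 0.0391) were 2 of the 24 (11.9%) that passed, all by limma. The excess of rat 2 ranged from 0.32 to 3.42 for rno-miR-195-5p and from 0.25 to 2.42 for rno-miR-497-5p over 12 ways of computing the values, and at the 75th percentile scaling neither passed the cutoff. In the authors' table rno-miR-195-5p was not highest in rat 2 in both plasma types, as it was in the other 11 ways. Of the 201 microRNAs, 49 (24.4%) were highest in rat 2 in both plasma types, beside 2 of 4 members. The liver marker rno-miR-122-5p was also highest in rat 2, with rat means of 5.89, 8.44 and 7.03 on the normalized log2 scale. The second liver marker detected, rno-miR-192-5p, was not, with rat means of 4.53, 5.52 and 5.55, and rno-miR-194-5p was detected on no array. Their part in the values of rno-miR-195-5p and rno-miR-497-5p was not tested, and the difference between the pairs on chromosomes 2 and 10 was not tested either.

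Each member was covered by 2 probes with 8 spots each, and before normalization both probes of the 4 detected members gave the same direction in every rat. Probes of an array share its brightness. Except for rno-miR-195-5p and rno-miR-497-5p in rat 2, these were also the directions of the median over the 126 microRNAs detected on all arrays. Agreement in direction therefore says little about the differences themselves. For rno-miR-16-5p the log2 difference before normalization was 0.45 by both probes in rat 1, -0.67 and -0.57 in rat 2, and 1.11 and 1.22 in rat 3. For rno-miR-195-5p the probes gave 0.76 and 0.91 in rat 1, 0.34 and 0.43 in rat 2, and 2.15 and 1.53 in rat 3. The coefficient of variation between the spots of a probe ranged from 0.807 to 4.39% for rno-miR-16-5p and from 2.66 to 15.6% for rno-miR-15b-5p. It reached 133% for rno-miR-195-5p and 114% for rno-miR-497-5p on their dimmest arrays, so that values of this pair outside rat 2 are far less certain.

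**Figure D4:**
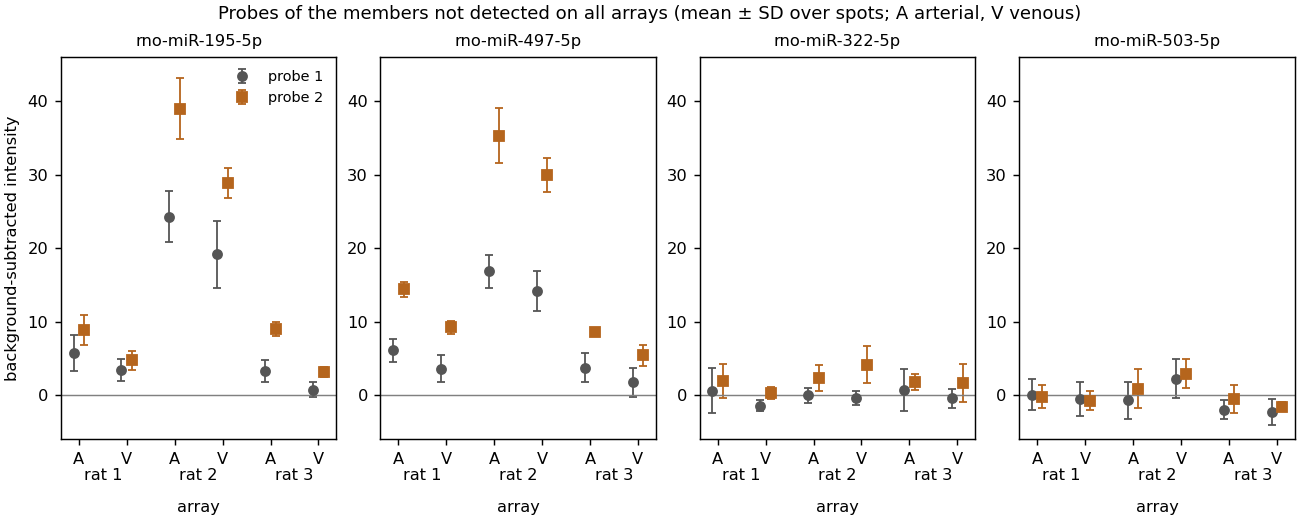
Background-subtracted intensity (vertical axis, mean ± SD over the spots used) of both probes of the 4 members not detected on all arrays (horizontal axis, arterial A and venous V by rat). Both probes of rno-miR-195-5p and rno-miR-497-5p are highest on both arrays of rat 2, and those of rno-miR-322-5p and rno-miR-503-5p lie near 0.

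rno-miR-322-5p and rno-miR-503-5p, which are known to act together in muscle differentiation, gave no signal above background in either plasma type. The intensity of rno-miR-322-5p was 1.27, 1.19 and 1.28 in arterial and -0.55, 1.92 and 0.62 in venous plasma of rats 1, 2 and 3. That of rno-miR-503-5p was -0.04, 0.13 and -1.22 in arterial and -0.61, 2.60 and -1.92 in venous plasma. The values lay near 0, and after normalization rno-miR-322-5p was under the floor of 1 on 3 arrays and rno-miR-503-5p on 5, so that no fold is given for either.

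The deposited table of quantile-normalized intensities ranks the probes of each array exactly as the raw median of each probe's first spot does, and it keeps the background. In it, rno-miR-503-5p had values of 36.4, 36.8 and 39.6 in arterial and 37.4, 38.9 and 41.4 in venous plasma, lower in the arterial sample of each rat. The group means were 37.6 ± 1.77 (SD, n = 3) and 39.2 ± 2.06 (SD, n = 3). For the 557 microRNAs detected on no array, the median in this table was 39.2 and the range from the 5th to the 95th percentile was 35.8 to 45.0, which holds every value of rno-miR-503-5p. The methods' t-test on the linear values of this table, added after seeing the data, called 0 members at a two-sided cutoff of 0.025, beside 11 of 758 microRNAs (1.45%). Taken one-sided in the direction that each difference showed, which equals a two-sided cutoff of 0.05, it called rno-miR-503-5p, 1 of 24 (3.17%). After adjustment 0 of 758 were called at 0.05 either way. The study lists rno-miR-503-5p among its microRNAs higher in venous plasma. The exact permutation p of rno-miR-503-5p was 0.25, the smallest that 3 pairs allow. A difference in it was not detectable above background.

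The other strands of the 6 hairpins were also near background. Of the 6 partner strands, rno-miR-322-3p was detected on 1 array and the other 5 on none, 3 stayed under the floor on every array, and the highest intensity of any was 6.66. None passed the cutoff between plasma types or between rats. The other microRNAs of the X-linked cluster, both strands of rno-miR-351, rno-miR-542 and rno-miR-450a, gave a like picture. Of these 6, rno-miR-450a-5p was detected on 1 array, the highest intensity was 3.87, and none passed the cutoff in either comparison.

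rno-miR-103-3p and rno-miR-107-3p, which are known for roles in lipid and insulin metabolism and lie in genes for pantothenate kinases (Pank2 and Pank1), hold all letters of the family seed, shifted by 1 base toward the 5′ end. Their RefSeq sequences show the shift, with bases 2 to 8 in capitals.
rno-miR-103-3p: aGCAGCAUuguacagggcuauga
rno-miR-107-3p: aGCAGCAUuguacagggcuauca
Both were detected on all arrays, with log2 differences of -0.15 and 0.00 (adjusted p = 1 for each by limma).

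The microRNAs whose normalized log2 values ran most like those of each member over the 6 arrays were found among the 124 others detected on all arrays. For rno-miR-15b-5p they were rno-miR-142-3p (Pearson r = 0.935), rno-miR-223-3p (0.899) and rno-miR-144-3p (0.896), against a median of 0.118 over the 124. The first and second are platelet and leukocyte markers and the third is made with miR-451 in red cells. The other red cell markers ranked far lower, with 0.02 (rank 68) for rno-miR-451-5p and 0.17 (rank 57) for rno-miR-486. Of the spots used for rno-miR-142-3p, 27 of 87 were well above background. Platelet and leukocyte markers did not all move alike. In rat 3, rno-miR-150-5p differed by -0.58, opposite to rno-miR-15b-5p and rno-miR-16-5p. There rno-miR-223-3p, rno-miR-142-3p, rno-miR-142-5p and rno-miR-146a-5p differed in the same direction as these members. For rno-miR-16-5p they were rno-miR-103-3p (0.956), rno-miR-142-5p (0.941) and rno-miR-107-3p (0.923), against a median of 0.04, while rno-miR-451-5p had 0.04 and rno-miR-486 had -0.10. rno-miR-451-5p had the same normalized value of 10.49 on every array but the venous array of rat 3 (9.71). Its r with either member therefore rests on that array and does not tell how they ran together on the others. Within the family, r was 0.972 between rno-miR-195-5p and rno-miR-497-5p, 0.589 between rno-miR-15b-5p and rno-miR-16-5p, and between -0.38 and 0.43 for the pairs across chromosomes. These correlations are descriptions over 6 arrays that share rats and slides, and those of rno-miR-195-5p and rno-miR-497-5p include arrays on which they were not detected.

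rno-miR-15a-5p, which bears the family's name but is no member of the list, was looked at after its values were seen. It was detected on all 6 arrays, with normalized log2 intensities of 3.51, 4.08 and 3.96 in arterial and 3.51, 4.01 and 3.26 in venous plasma. Its difference was 0.00, 0.07 and 0.70 by rat (mean 0.26, standard error 0.214, adjusted p = 1 by limma), with rat 3 the farthest from 0 as for rno-miR-15b-5p.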

How the data were processed

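MicroRNAs of arterial and venous plasma of 3 rats were measured on 6 single-colour Agilent arrays. The authors deposited the scanner output of each array as background-subtracted spot intensity that was not normalized, and a probe table of linear intensity after quantile normalization. The labels name Feature Extraction 11.0.1.1 and the array files 10.7.3.1. Scanner intensities were used here. Control spots and outlier spots (8.72 to 10.4% of an array) were left out, means were taken over spots and then over probes, quantile normalization was applied across the 758 microRNAs, and log2 followed after raising values below 1 to a floor of 1.

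Arterial minus venous differences entered a two-sided limma test (version 3.58.1, R 4.3.3) with the rat as block. Calls were made at an unadjusted p of 0.025, and at 0.05 after Benjamini-Hochberg adjustment over all 758, and rats with the moderated F test of that fit. Many microRNAs without spread at the floor left limma's prior only 0.198 degrees of freedom, against 3.67 over the 201 microRNAs detected on at least 1 array. Ratios were compared with an exact permutation test (Python 3.11.15). The rat numbers come from the labels and were checked: deviations from the group means correlated between samples of the same rat (0.799, 0.686 and 0.635 over 126 microRNAs). Between rats the values were negative (-0.73 to -0.01), which deviations from a mean over 3 rats favour by construction. For rat 3 the check does not separate the rat from its slide. The paired limma fit was tested on data simulated from the 126 microRNAs detected on all arrays, not from all 758. The planted changes were larger than the mean differences of the members.

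The text names the members, their partner strands, the other microRNAs of the X-linked cluster, microRNAs that hold GCAGCA within bases 1 to 8, the 3 most alike to each member detected on all arrays, and markers of blood cells, endothelium, liver and muscle. Members and lists were chosen with earlier results of these data known. Alternatives in normalization, background, spot and probe summary, floor, filter, test, block and rats used were tried. Endothelial and muscle markers summed to at most 65.1 and 40.2 on an array and enter no result. Sequences and coordinates are of GRCr8. The quantitative PCR and target analyses of the study were not analysed here.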

Additional observations from a re-analysis of the deposited data

How the results depend on the processing

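The alternatives comprised 20 settings, and 4 more were chosen after seeing the data. Of these, 2 joined a scaling to a fit on microRNAs detected on all arrays, and 2 ran the methods' t-test, two-sided and one-sided, on the authors' table. Scaling by hybridization spike-ins was not run, because the control names do not tell which spots these are. With 3 rats and values near background, differences in rno-miR-195-5p and rno-miR-497-5p rest on few spots well above background.

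The difference of rno-miR-15b-5p, close to 0, turned to 0.36 without normalization (also when fitted on microRNAs detected on all arrays), to 0.0016 in the authors' table, and to 0.13 and 0.14 without rat 1 or rat 2. That of rno-miR-16-5p turned from -0.15 to 0.34 without normalization in both fits. The median of these 2 members moved from -0.08 to 0.35 there, against a median of 0.40 in the mean differences of all microRNAs detected on every array. The difference of rno-miR-195-5p turned from 0.56 to -0.12 in the authors' table, where the first listed spot of 1 of its probes on the venous array of rat 1 was flagged as an outlier (28.9 after background subtraction, against a mean of 4.74 over the unflagged spots). That of rno-miR-497-5p stayed above 0 under all 19 alternatives, from 0.03 to 0.69. The changes of floor, filter, test and block among these could not alter its mean and left it at 0.24. The mean difference in the ratio of rno-miR-16-5p to rno-miR-15b-5p (-0.24 to -0.02) and to rno-miR-451-5p (-0.50 to -0.04) kept its sign under all 14. The ratio to rno-miR-451-5p was not lower in every rat's arterial sample in the authors' table (mean -0.14, exact permutation p = 0.75). With the brightest probe (mean -0.04) it was not either.

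Members past the cutoff between plasma types numbered 0, but 1 with normexp (rno-miR-195-5p at 0.09), 1 (rno-miR-503-5p) with the one-sided t-test of the authors' table, and 0 to 1 with 1 rat left out: rno-miR-497-5p at 0.31 without rat 1 and rno-miR-15b-5p at -0.27 without rat 3, each with an adjusted limma p of at least 0.404. Leaving out the replicate block that pairs samples of a rat cannot change the mean differences. They stayed at 0.00, -0.15, 0.56 and 0.24 for rno-miR-15b-5p, rno-miR-16-5p, rno-miR-195-5p and rno-miR-497-5p. In that fit 5 microRNAs were called, and no member's call changed.

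Between rats, 1 member passed, against 0 with either 75th percentile scaling, with the total gene signal, and in the 3 fits on microRNAs detected on all arrays, which hold only 2 members. It was 2 with normexp, the brightest probe, a floor of 5 and microRNAs detected on at least 1 array, and 0 to 2 with 1 rat left out (0 without rat 2). The counts of these alternatives over all microRNAs are not given.

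Over all microRNAs, the 6 calls (66.7% higher in arterial plasma) became 12 in the authors' table, 13 with normexp, 10 with the median of spots, 11 with the brightest probe, 13 with a floor of 0.1, 2 with a floor of 5, 3 with only microRNAs detected on all arrays, and 17 to 33 with 1 rat left out (33 without rat 1). The 75th percentile over detected or all microRNAs gave 42.9 and 40.0% higher in arterial plasma, and no normalization 80.0%. The t-test on the authors' table gave 11 calls (54.5%) two-sided and 24 (41.7%) one-sided.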
